A study of Mus musculus with 12 samples.

Results

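The 10 genes described here write, copy, read or erase methylation on DNA: Dnmt1, Uhrf1, Uhrf2, Dnmt3a, Dnmt3b, Tet1, Tet2, Tet3, Tdg and Mbd2. They were chosen by name for their roles, with earlier results of these data known. All 10 were among the 19434 gene symbols counted and among the 11062 genes tested. Mki67, a gene expressed in dividing cells, served as the proliferation reference for Dnmt1 and Uhrf1. RNA came from lung CD4+ T cells of male and female C57BL/6NJ mice, an inbred strain, sorted 48 hours after the mice had aspirated 2800000 colony-forming units of E. coli or PBS, the buffer control. The 4 groups were E. coli juveniles (aspiration at day 15 of life), PBS juveniles (day 15), E. coli neonates (day 5) and PBS neonates (day 5). The labels name no transgene or gene deletion in any group. Each group had 3 libraries, and each library pooled the cells of 2 juvenile or 3 neonatal mice, so differences between single mice were not measured. The series concerns DNA methylation in CD4+ T cells of neonatal mice with pneumonia.

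In mammals, methyl groups sit mainly on cytosines that precede a guanine (CpG sites). When DNA is replicated, the UHRF1 protein recognises the half-copied sites and recruits the maintenance methyltransferase DNMT1, so both proteins are needed most in dividing cells. DNMT3A and DNMT3B add methyl groups at new sites. The TET proteins oxidise methylcytosine, the glycosylase TDG excises oxidised forms for base repair, and MBD2 binds methylated CpG sites and recruits a repressor complex. In T cells, DNMT1, DNMT3A and TET2 are known to shape which cytokine genes can be expressed after activation.

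The gene pair that copies methylation at replication is shown with its promoters, because Dnmt1 and Uhrf1 rose with the cell-cycle genes in E. coli juveniles over PBS juveniles. Both also held E2F-like letters, the motif class bound by factors that switch on S phase genes. The windows run from 250 bases before to 50 bases after an annotated start (RefSeq, GRCm38.p6). The Dnmt1 window is chr9:20952574-20952873 on the minus strand and the Uhrf1 window is chr17:56304063-56304362 on the plus strand. Capitals mark TTTCGCGC or TTTGGCGC, read on either strand.
Dnmt1: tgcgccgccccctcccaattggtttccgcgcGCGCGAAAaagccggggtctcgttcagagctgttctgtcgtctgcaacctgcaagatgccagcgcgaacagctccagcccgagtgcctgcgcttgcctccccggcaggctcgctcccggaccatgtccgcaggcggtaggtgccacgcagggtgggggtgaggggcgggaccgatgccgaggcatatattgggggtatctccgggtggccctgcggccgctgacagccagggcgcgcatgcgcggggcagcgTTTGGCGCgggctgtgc
Uhrf1: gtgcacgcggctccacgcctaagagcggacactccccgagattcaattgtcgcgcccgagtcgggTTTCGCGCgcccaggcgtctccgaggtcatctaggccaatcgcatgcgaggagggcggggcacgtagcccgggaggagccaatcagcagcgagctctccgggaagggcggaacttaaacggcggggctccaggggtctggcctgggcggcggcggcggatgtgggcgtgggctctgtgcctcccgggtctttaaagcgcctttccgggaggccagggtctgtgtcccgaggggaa
The Dnmt1 window held TTTCGCGC on the other strand at bases 32 to 39 and TTTGGCGC on the given strand at bases 284 to 291, counted from the 5′ end of the window. The Uhrf1 window held TTTCGCGC on the given strand at bases 66 to 73. Dnmt1 has 3 annotated windows and Uhrf1 has 2, and in both genes only the printed window had a match. The 14 windows of 9 member genes were searched, and none of the windows of Uhrf2, Dnmt3a, Dnmt3b, Tet1, Tet2, Tet3 or Tdg held either 8-letter motif; no window of Mbd2 was used here. Of all 32851 RefSeq windows, 267 (0.813%) held a match. By gene, a match was found in 156 of 8324 tested genes with a window (1.87%), in 5 of 16 S phase genes (31.2%: Mcm3, Mcm5, Mcm6, Mcm7 and Pola1) and in 1 of 13 G2/M genes (7.69%: Cdk1). Mki67 had none. These are matches of letters and were not tested for binding. In CpG content, the printed Dnmt1 and Uhrf1 windows had 33 CpG sites each. The other Dnmt1 windows had 2 and 12 and the other Uhrf1 window had 12. Among the other members, the Tet2 window had 57, the Dnmt3a windows 46, 47 and 18, and the Dnmt3b window 30. The Uhrf2 window had 28, the Tdg window 26, the Tet3 window 22 and the Tet1 window 17. The median was 20 CpG sites over the windows of tested genes.

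The libraries held 6035445 to 8129983 counts. Values are CPM, counts set relative to the library total and scaled for library composition, and 3 counts in a library corresponded to 0.374 to 0.494 CPM. Changes are log2 fold changes ± SE with Benjamini-Hochberg adjusted p-values over all tested genes from the edgeR quasi-likelihood F test. A gene is said to have risen or fallen where its adjusted p was under 0.05. The T cell label was met: in every library Cd3e stood at 1421 to 2033 CPM and Cd4 at 1028 to 1343 CPM, and 7 of 10 T cell markers in the table summed to 3679 to 3998 CPM in E. coli juveniles, 4518 to 4768 in PBS juveniles, 3792 to 4105 in E. coli neonates and 3778 to 4299 in PBS neonates. Of these 7 markers, 4 fell and 0 rose with E. coli in juveniles (median log2 -0.26), where 9.42% of all tested genes fell. Myeloid markers moved with exposure: 8 of 10 monocyte and macrophage markers in the table summed to 363 to 683 CPM in E. coli juveniles, 152 to 330 in PBS juveniles, 263 to 474 in E. coli neonates and 184 to 326 in PBS neonates. The 10 neutrophil markers summed to 8.51 to 20.9 CPM in E. coli juveniles, 0.165 to 3.17 in PBS juveniles, 9.83 to 50.4 in E. coli neonates and 0.694 to 1.93 in PBS neonates, with Elane at 0 in every library and Ly6g at 0 in all but E. coli juveniles. The 5 dendritic cell markers summed to 171 to 238 CPM in E. coli juveniles, 75.8 to 93.4 in PBS juveniles, 52.7 to 64.5 in E. coli neonates and 37.6 to 51.9 in PBS neonates. The 5 lung epithelial markers summed to 60.0 to 156 CPM in E. coli juveniles, 23.6 to 33.3 in PBS juveniles, 47.4 to 160.3 in E. coli neonates and 42.4 to 72.8 in PBS neonates. The 5 endothelial markers summed to 220.4 to 237 CPM in E. coli juveniles, 227 to 242 in PBS juveniles, 248 to 285 in E. coli neonates and 269 to 298 in PBS neonates, and of the 4 tested 3 rose and 1 fell with E. coli in juveniles. The other marker lists summed to at most 44.3 CPM for B cells, 22.0 for fibroblasts, 11.8 for natural killer cells and 5.06 for erythroid cells in any library. By their immature T cell markers, libraries stood apart within 2 groups. Of 8 immature T cell markers, 7 were in the table and summed to 377 CPM in PBS juvenile library 2 (Rag1 169.9 CPM), against 51.2 and 70.5 CPM in the other PBS juvenile libraries. They summed to 571.5 CPM in PBS neonate library 1 (Rag1 344 CPM), against 149.9 and 105 CPM in the other PBS neonate libraries. E. coli juveniles had 215 to 276 CPM of these markers and E. coli neonates 37.4 to 85.0 CPM. Values without PBS juvenile library 2, or without it and PBS neonate library 1, and values with a marker sum as a covariate stand beside the results of the 10 genes whose calls they change; beyond these values the part of such cells in the results was not tested.

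**Figure D1:**
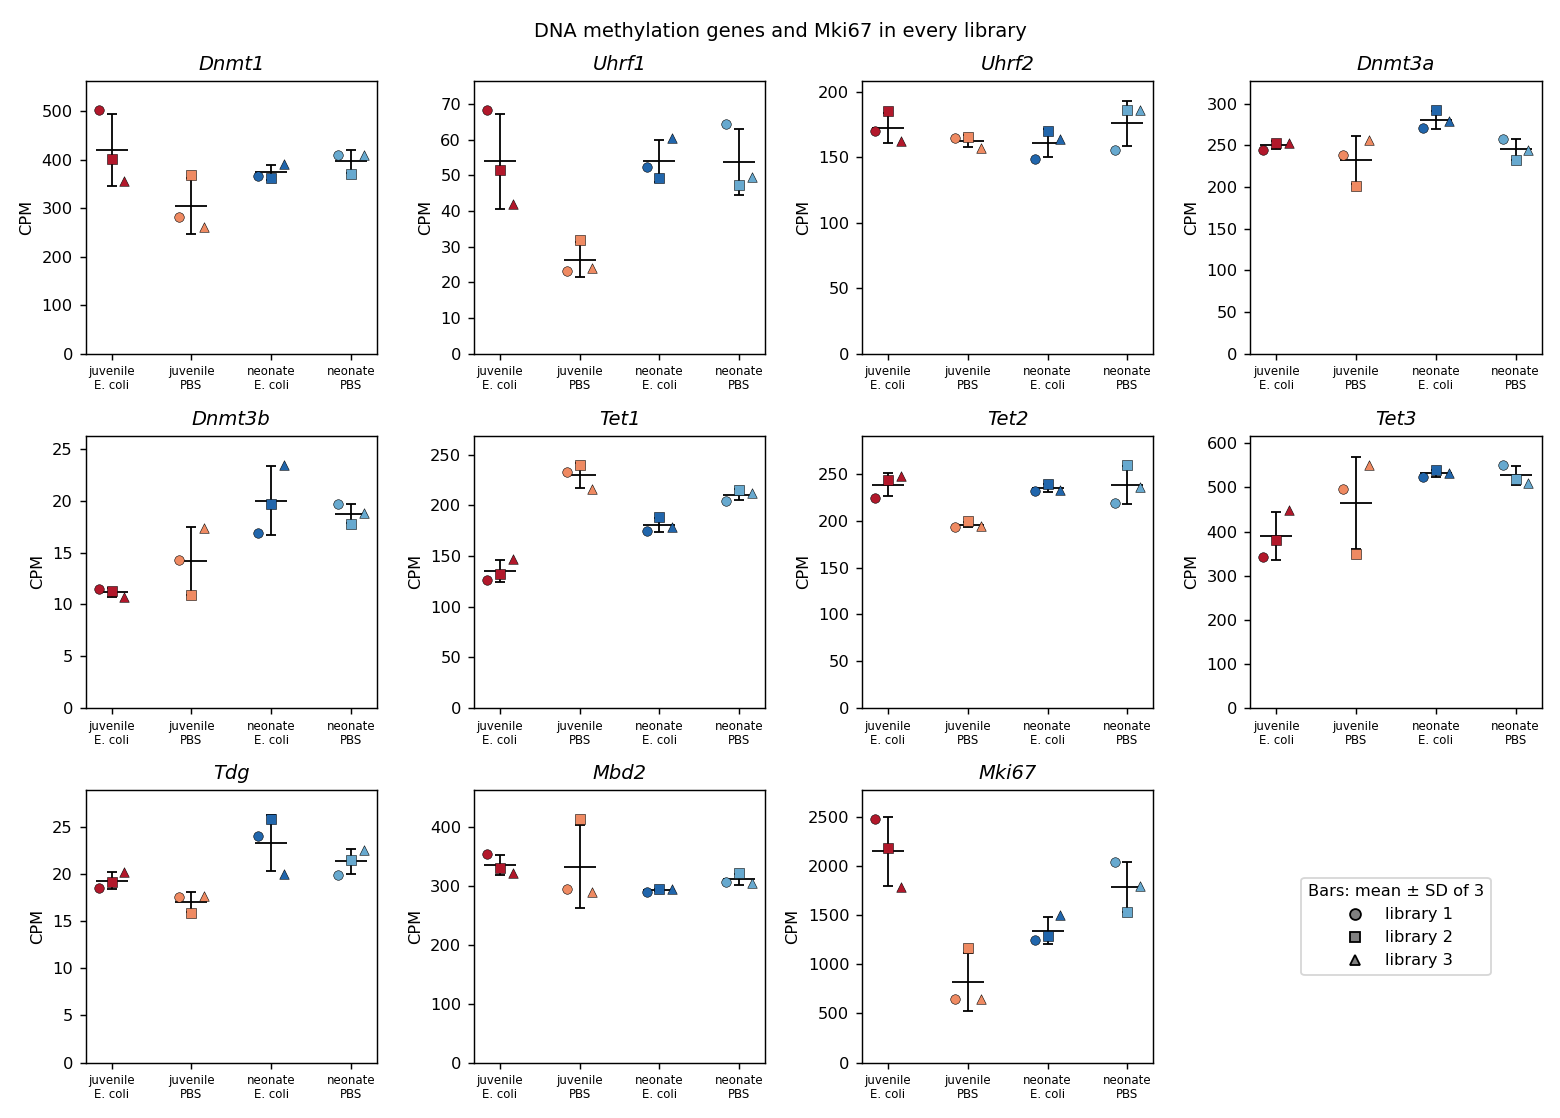
Level in CPM (vertical axes, linear from 0) of the 10 DNA methylation genes and Mki67 in each of the 12 libraries, by group; points are libraries, and bars are mean ± SD of 3. Uhrf1 and Mki67 are lowest in PBS juveniles, and Tet1 is lowest in E. coli juveniles.

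Counted over the 10 genes, E. coli over PBS in juveniles moved 4 of them: Dnmt1, Uhrf1 and Tet2 rose and Tet1 fell. Of all tested genes, 24.8% were called in that comparison, 15.4% higher and 9.42% lower. The count was 2 with only the juvenile libraries in the fit, where Dnmt1 and Tet2 were lost, and 7 without PBS juvenile library 2. In neonates 0 of 10 passed with edgeR, DESeq2 or limma voom, 2 had an unadjusted p under 0.05 (Dnmt3a and Tet1), and 1.19% of all tested genes were called, 1.05% higher and 0.145% lower. For PBS juveniles over PBS neonates, 1 of 10 fell (Uhrf1) and 0 rose, where 4.08% of all genes were called, 1.75% higher and 2.32% lower; without PBS juvenile library 2, Dnmt1 and Tet2 fell as well, which made 3. For E. coli juveniles over E. coli neonates, 3 of 10 fell (Dnmt3b, Tet1 and Tet3) and 0 rose, where 17.8% of all genes were called, 11.3% higher and 6.42% lower. Tet3 was lost there without any 1 of 5 libraries, which left 2. For the difference between the juvenile and the neonatal response, Uhrf1 was called in the positive and Tet1 in the negative direction, where 7.00% of all genes were called, 5.05% positive and 1.94% negative. That count of 2 was 1 (Tet1) without any 1 of 6 libraries, and it was 4 without PBS juvenile library 2, where Dnmt1 and Tet3 were added. For E. coli over PBS, the groups did not overlap for 4 of 10 genes in juveniles (36.9% of all tested genes) and for 3 of 10 in neonates (21.8%). For juveniles over neonates, they did not overlap for 6 of 10 genes after PBS (20.0% of all tested genes) and for 5 of 10 after E. coli (39.9%). For E. coli over PBS, the median log2 change of the 10 genes was 0.10 in juveniles (-0.01 over all tested genes) and -0.01 in neonates (-0.00 over all). For juveniles over neonates it was -0.23 after PBS (0.01 over all) and -0.08 after E. coli (-0.02 over all). These comparisons share libraries in pairs, so the counts are not independent of each other.

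**Figure D2:**
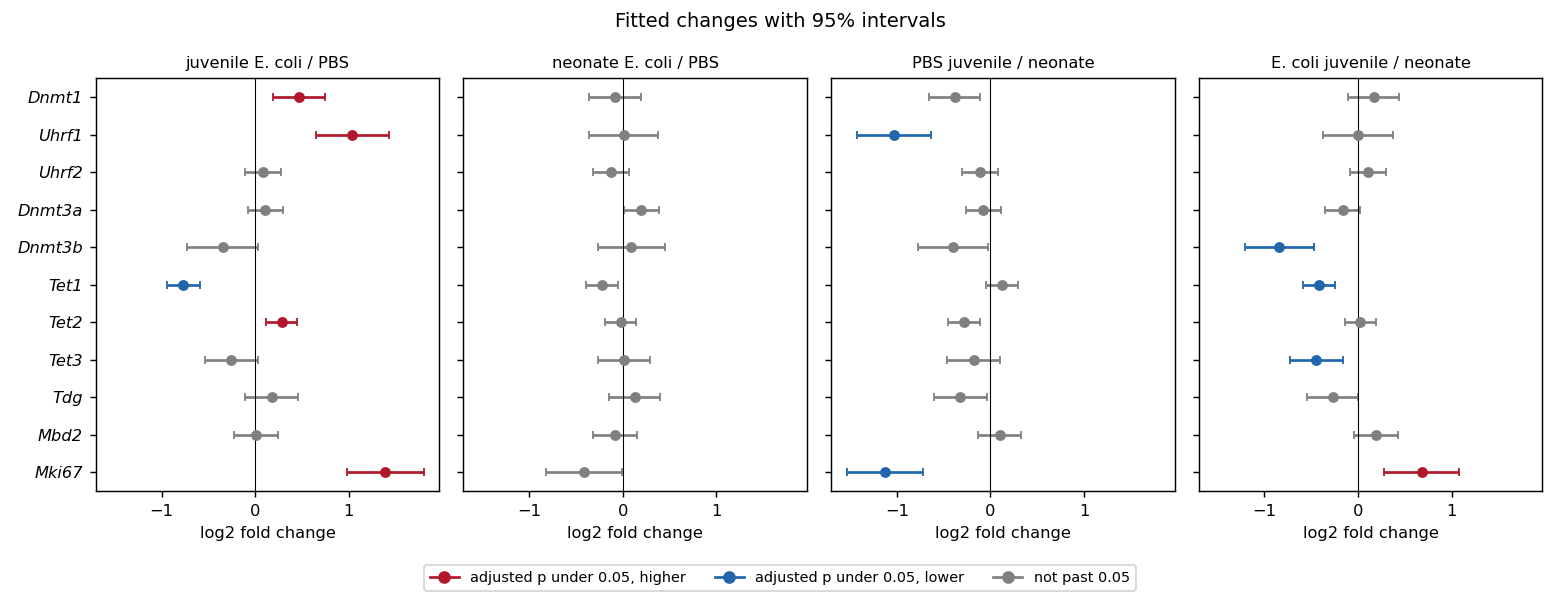
Log2 fold changes with 95% intervals (horizontal axes) of the 10 genes and Mki67 in 4 comparisons; red and blue points had adjusted p under 0.05 and were higher or lower in the group named first. Calls are most frequent in juveniles for E. coli over PBS, where 3 of 10 genes rose and 1 fell, and there are none among the 10 genes in neonates.

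Among the maintenance genes, Dnmt1 and Uhrf1 were higher in E. coli juveniles than in PBS juveniles, and neither passed the test in neonates. Dnmt1, the methyltransferase that copies methylation onto new DNA strands (chromosome 9, 20907209 to 20959888, minus strand, GRCm38), had 502, 402 and 355 CPM in E. coli juveniles, against 282, 369 and 260.0 CPM in PBS juveniles. It had 367, 363 and 390.3 CPM in E. coli neonates, against 409, 369 and 409 CPM in PBS neonates. The PBS juvenile libraries 1 and 3 were the lowest of the 12 for Dnmt1, while PBS juvenile library 2 lay above the lowest E. coli juvenile library. The juvenile increase was 1.38-fold (log2 0.47 ± 0.13, adjusted p = 0.0161), although the ranges overlapped. It rested on single libraries: without E. coli juvenile library 1 it was 0.29 (adjusted p = 0.128), without PBS juvenile library 1 it was 0.41 (adjusted p = 0.0673), and without PBS juvenile library 3 it was 0.38 (adjusted p = 0.0611). Without PBS juvenile library 2 it was 0.63 (adjusted p = 0.000884). With only the juvenile libraries in the fit it was 0.46 (adjusted p = 0.0714), and with the immature T cell marker sum as a covariate 0.37 (adjusted p = 0.051). In neonates, E. coli over PBS gave log2 -0.08 ± 0.13 (adjusted p = 0.877, 95% interval -0.36 to 0.19). PBS juveniles against PBS neonates gave -0.38 ± 0.13, which did not pass (adjusted p = 0.117), and -0.55 without PBS juvenile library 2 (adjusted p = 0.00983).

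Uhrf1, the partner that recognises half-methylated CpG sites (chromosome 17, 56303321 to 56323486, plus strand), had 68.3, 51.5 and 42.1 CPM in E. coli juveniles, against 23.1, 32.0 and 24.1 CPM in PBS juveniles. It had 52.5, 49.2 and 60.6 CPM in E. coli neonates, against 64.4, 47.4 and 49.5 CPM in PBS neonates. The 3 PBS juvenile libraries were below all 9 others, and the remaining 3 groups overlapped. Uhrf1 rose 2.05-fold in E. coli juveniles over PBS juveniles (log2 1.04 ± 0.18, adjusted p = 0.000804), and by 0.89 with the immature T cell marker sum in the fit (adjusted p = 0.0028). It was lower in PBS juveniles than in PBS neonates by a log2 fold change of -1.03 ± 0.18 (adjusted p = 0.00582). In neonates the change with E. coli was 0.01 ± 0.17 (adjusted p = 0.993, 95% interval -0.36 to 0.38). The juvenile response exceeded the neonatal response by 1.03 ± 0.25 on the log2 scale (95% interval 0.49 to 1.57, adjusted p = 0.0239). That difference between ages missed the threshold without any 1 of 6 libraries, with values of 0.79 to 0.98 and adjusted p of 0.0518 to 0.0885: E. coli juvenile library 1, PBS juvenile libraries 1 and 3, E. coli neonate libraries 1 and 2, and PBS neonate library 1. With the immature T cell marker sum in the fit it was 0.57 (adjusted p = 0.407). For Dnmt1 the same difference between responses was 0.55 ± 0.18 and did not pass (adjusted p = 0.0845). It was 0.71 without PBS juvenile library 2 (adjusted p = 0.00638), 0.69 without that library and PBS neonate library 1 (adjusted p = 0.0189), and 0.66 with the neutrophil and monocyte marker sum in the fit (adjusted p = 0.0463).

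Uhrf2, the UHRF1 relative whose part in maintenance methylation is less clear, passed in no comparison. Its libraries ran from 162 to 185 CPM in E. coli juveniles, 157 to 165 in PBS juveniles, 149 to 169.9 in E. coli neonates and 156 to 186 in PBS neonates, and all neighbouring groups overlapped. Its adjusted p-values were 0.35 to 0.651 over the 4 pairwise comparisons and the difference between responses. A difference between Uhrf1 and Uhrf2 was not tested.

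Proliferation transcripts rose with E. coli in juveniles, as Dnmt1 and Uhrf1 did. Mki67, which encodes the Ki-67 protein of dividing cells, had 2474, 2184 and 1780.4 CPM in E. coli juveniles, against 645, 1161 and 648 CPM in PBS juveniles. It had 1243, 1283 and 1498 CPM in E. coli neonates, against 2039, 1528 and 1795 CPM in PBS neonates. PBS juveniles were below every other group, and within them library 2 was the highest, as it was for Dnmt1 and Uhrf1. Mki67 rose in E. coli juveniles over PBS juveniles (log2 1.39 ± 0.19, adjusted p = 0.000107) and was lower in PBS juveniles than in PBS neonates (-1.13 ± 0.19, adjusted p = 0.0042). In neonates the Mki67 libraries did not overlap and the change with E. coli was -0.41 ± 0.19 (adjusted p = 0.402), which passed with only the neonatal libraries in the fit (-0.41, adjusted p = 0.0407). For E. coli juveniles over E. coli neonates, Mki67 rose by 0.68 ± 0.19 (adjusted p = 0.0222), where neither Dnmt1 (0.17) nor Uhrf1 (-0.0023) passed. That Mki67 call was lost without E. coli juvenile library 1 or 2 or E. coli neonate library 1 or 2 (adjusted p = 0.068 to 0.108). It was also lost with the immature T cell marker sum in the fit (adjusted p = 0.605). The juvenile Mki67 response exceeded the neonatal one by 1.81 ± 0.27 (adjusted p = 0.00157). Of 20 S phase genes, 13 rose and 0 fell in E. coli juveniles over PBS juveniles, with Pola1, a subunit of the replicative polymerase that primes DNA, at 0.82 ± 0.13 and Cdc45, a helicase cofactor, at 1.03 ± 0.19. Of 15 G2/M genes, 12 rose and 0 fell in that comparison, with Cenpe, a kinetochore motor, at 1.56 ± 0.19. In neonates none of these 35 genes passed for E. coli over PBS, where 1.19% of all tested genes were called (24.8% in juveniles). The median change in juveniles was 0.63 over the S phase genes and 1.10 over the G2/M genes, against -0.01 over all tested genes. In bulk RNA, a larger share of dividing cells and more transcript per dividing cell cannot be told apart.

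Set against Mki67 in the same library, the Dnmt1 level was lower after E. coli than after PBS in juveniles and higher in neonates. It was 20.3%, 18.4% and 19.9% of the Mki67 level in E. coli juveniles, against 43.8%, 31.8% and 40.1% in PBS juveniles. It was 29.5%, 28.3% and 26.1% in E. coli neonates, against 20.1%, 24.2% and 22.8% in PBS neonates. The groups did not overlap in either pair. The mean ratio was 19.5% ± 1.004 in E. coli juveniles against 38.6% ± 6.13 in PBS juveniles (SD, n = 3 each), and 27.96% ± 1.76 in E. coli neonates against 22.4% ± 2.09 in PBS neonates (SD, n = 3 each). As log2 ratios the differences were -0.97 in juveniles and 0.33 in neonates, each with a two-sided exact permutation p of 0.1, the smallest that 3 against 3 libraries allow (adjusted p = 0.189 over the 12 ratio tests). For Uhrf1 the ratio averaged 2.49% ± 0.231 of Mki67 in E. coli juveniles and 3.35% ± 0.518 in PBS juveniles (SD, n = 3 each), a log2 difference of -0.42 (exact permutation p = 0.2, adjusted p = 0.267). It averaged 4.04% ± 0.192 in E. coli neonates and 3.00% ± 0.217 in PBS neonates (SD, n = 3 each), a difference of 0.43 (exact permutation p = 0.1, adjusted p = 0.189). Stratified exact tests, in which libraries were permuted within age, gave -0.32 for Dnmt1 (p = 0.165, adjusted p = 0.247) and 0.0050 for Uhrf1 (p = 0.965). Each of these values is the mean of the juvenile and the neonatal difference. The differences had opposite signs at the 2 ages for both genes, so they offset each other in the mean. None of the 12 ratio tests passed, and the 8 that set 3 libraries against 3 could not.

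For Dnmt1 in juveniles, the mean ratio was lower after E. coli than after PBS against Mki67, the S phase genes and the G2/M genes alike, while the direction for Dnmt1 in neonates and for Uhrf1 in juveniles depended on the reference. Against the summed S phase genes, the group means of Dnmt1 lay within 3 percentage points of each other: 28.6% ± 0.779 in E. coli juveniles, 31.1% ± 1.24 in PBS juveniles, 28.1% ± 0.806 in E. coli neonates and 28.4% ± 1.01 in PBS neonates (SD, n = 3 each). Against the summed G2/M genes, Dnmt1 was 16.8% ± 1.52 in E. coli juveniles, 27.9% ± 4.03 in PBS juveniles, 16.9% ± 0.493 in E. coli neonates and 17.1% ± 1.86 in PBS neonates (SD, n = 3 each). Uhrf1 against the S phase genes was 3.65% ± 0.200 in E. coli juveniles and 2.70% ± 0.0633 in PBS juveniles, the opposite order to that against Mki67, and 4.06% ± 0.229 in E. coli neonates and 3.84% ± 0.517 in PBS neonates (SD, n = 3 each). Against the summed G2/M genes, Uhrf1 was 2.14% ± 0.124 in E. coli juveniles, 2.42% ± 0.362 in PBS juveniles, 2.45% ± 0.234 in E. coli neonates and 2.30% ± 0.0903 in PBS neonates (SD, n = 3 each). The 3 references fall at different points of the cell cycle, and which of them describes Dnmt1 and Uhrf1 best was not tested.

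**Figure D3:**
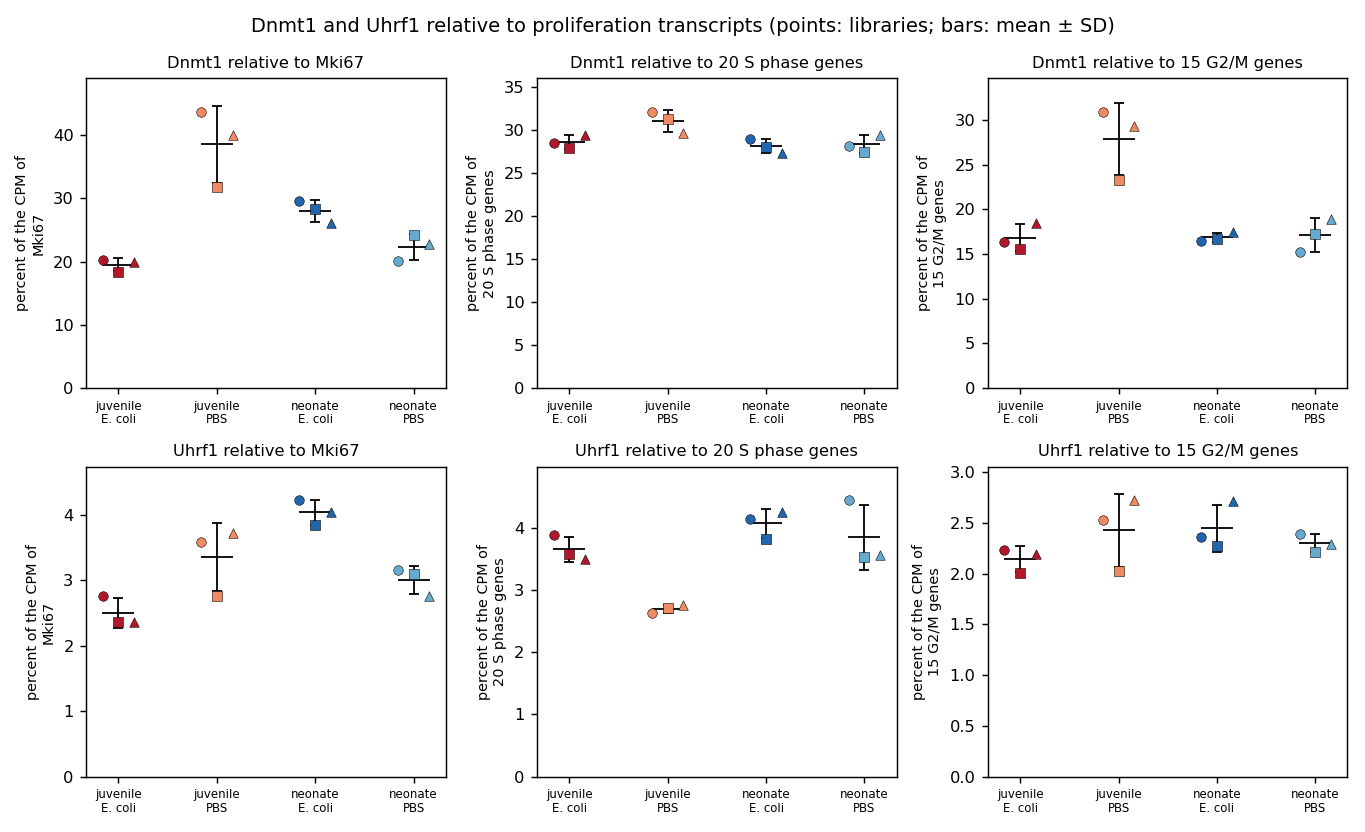
Dnmt1 (upper row) and Uhrf1 (lower row) as a percent of Mki67, of 20 summed S phase genes and of 15 summed G2/M genes (vertical axes, from 0), by group; points are libraries, and bars are mean ± SD of 3. The PBS juvenile libraries are highest for Dnmt1 against Mki67 and lowest for Uhrf1 against S phase genes.

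With a proliferation level as a covariate, neither gene passed for the juvenile response. With the Mki67 level in the fit, E. coli over PBS in juveniles was -0.36 for Dnmt1 (adjusted p = 0.201) and -0.11 for Uhrf1 (adjusted p = 0.842). With the S phase level it was -0.09 for Dnmt1 (adjusted p = 0.632) and 0.28 for Uhrf1 (adjusted p = 0.35). For PBS juveniles over PBS neonates, Uhrf1 gave -0.10 with the Mki67 level (adjusted p = 0.827) and -0.37 with the S phase level (adjusted p = 0.201). For E. coli juveniles over E. coli neonates, Uhrf1 gave -0.0023 without a covariate (adjusted p = 0.995) and -0.55 with the Mki67 level (adjusted p = 0.0406), a gained call. The Uhrf1 difference between the responses was -0.45 with the Mki67 level (adjusted p = 0.532) and 0.18 with the S phase level (adjusted p = 0.751). In these fits the covariate itself differed between the groups, so the parts of group and covariate cannot be told apart.

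**Figure D4:**
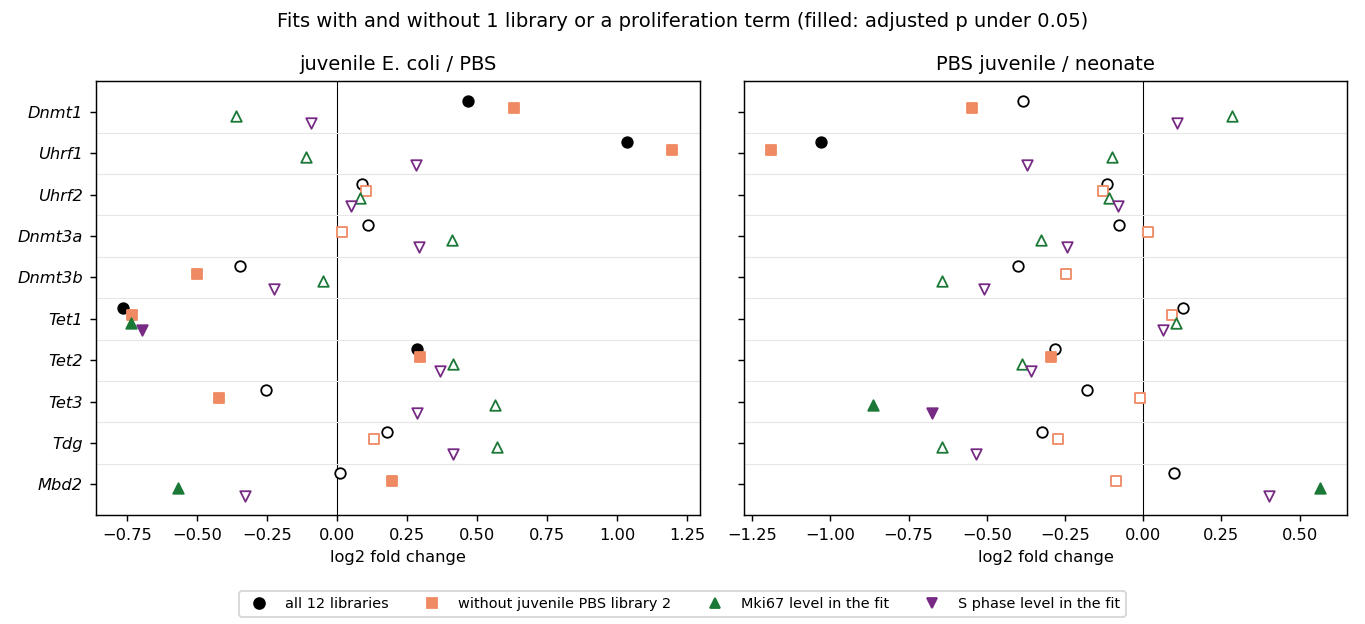
Log2 fold changes (horizontal axes) of the 10 genes for E. coli over PBS in juveniles (left) and for juveniles over neonates after PBS (right), in the fit of all 12 libraries, without PBS juvenile library 2, and with the Mki67 or the S phase level as a covariate; filled symbols had adjusted p under 0.05. On the left, Tet1 lies between -0.77 and -0.70 in all 4 fits, while Dnmt1 and Uhrf1 lie at or below 0.28 once a proliferation level is included.

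Of the genes that add methylation at new sites, Dnmt3a passed in no comparison and Dnmt3b was lower in E. coli juveniles than in E. coli neonates. Dnmt3b (chromosome 2, 153649450 to 153687730, plus strand) had 11.4, 11.3 and 10.7 CPM in E. coli juveniles, against 16.8, 19.7 and 23.5 CPM in E. coli neonates. It had 14.3, 10.9 and 17.4 CPM in PBS juveniles, against 19.6, 17.8 and 18.8 CPM in PBS neonates. Every juvenile library was below every neonatal library after PBS as well as after E. coli, apart from the overlap across exposures between PBS juvenile library 3 and E. coli neonate library 1. After E. coli it fell by 0.84 ± 0.17 on the log2 scale (adjusted p = 0.0032), with 0.559 times the neonatal level. After PBS the change was -0.40 ± 0.17 and did not pass (adjusted p = 0.232). The decrease after E. coli missed the threshold with the Mki67 level in the fit (-0.71, adjusted p = 0.0775) and with the immature T cell marker sum in the fit (-0.68, adjusted p = 0.0983). E. coli over PBS in juveniles was -0.35 ± 0.18 (adjusted p = 0.172) and became -0.50 (adjusted p = 0.0351) without PBS juvenile library 2.

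Dnmt3a, the main de novo methyltransferase of mature T cells, ran from 245 to 254 CPM in E. coli juveniles, 201 to 257 in PBS juveniles, 271 to 292 in E. coli neonates and 233 to 258 in PBS neonates. The E. coli neonate libraries were above all 9 others. The change with E. coli in neonates was 0.20 ± 0.09, with an unadjusted p of 0.04 and an adjusted p of 0.384. That of juveniles over neonates after E. coli was -0.16 ± 0.09 (adjusted p = 0.217). Neither passed.

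Among the erasers, Tet1 fell with E. coli in juveniles, with the smallest adjusted p of the 10 genes in any comparison. Tet1, a dioxygenase that oxidises methylcytosine (chromosome 10, 62804570 to 62908996, minus strand), had 126, 133 and 147 CPM in E. coli juveniles, against 233, 240.1 and 216 CPM in PBS juveniles. It had 175, 188 and 179 CPM in E. coli neonates, against 204, 215 and 212 CPM in PBS neonates. The 4 groups did not overlap and ran, from high to low, PBS juveniles, PBS neonates, E. coli neonates and E. coli juveniles. In juveniles it fell by 0.77 ± 0.08 on the log2 scale with E. coli (adjusted p = 1.15e-05), to 0.588 times the PBS level. In neonates the change was -0.22 ± 0.08, which did not pass (unadjusted p = 0.0137, adjusted p = 0.258). The decrease was larger in juveniles than in neonates by -0.54 ± 0.11 (95% interval -0.78 to -0.30, adjusted p = 0.0101). After E. coli, Tet1 was lower in juveniles than in neonates (-0.42 ± 0.08, adjusted p = 0.00194), and after PBS the juvenile over neonate change of 0.13 ± 0.08 did not pass (adjusted p = 0.458).

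The juvenile decrease of Tet1 passed under every alternative fit run, with adjusted p of 1.65e-17 to 0.0168. Leaving out any library gave -0.83 to -0.73, and the value was -0.74 with the Mki67 level in the fit and -0.70 with the S phase level. The difference between the ages changed little in value, while its call depended on the fit. It was -0.51 with the Mki67 level (adjusted p = 0.247), -0.47 with the S phase level (adjusted p = 0.181) and -0.58 with the immature T cell marker sum (adjusted p = 0.0783). Over all tested genes, those fits called 113, 7 and 128 differences between responses, against 774 in the fit reported. Leaving out any library gave -0.61 to -0.51 for Tet1, with the call kept. With the neutrophil and monocyte marker sum in the fit, the juvenile decrease was -0.78 (adjusted p = 0.000987) and the difference between the ages -0.55 (adjusted p = 0.0189).

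Tet2, the TET gene often lost in human T cell lymphoma, moved the other way from Tet1. Tet2 (chromosome 3, 133463679 to 133545139, minus strand) had 225, 244 and 247 CPM in E. coli juveniles, against 194, 199 and 195 CPM in PBS juveniles. It had 232, 239 and 233 CPM in E. coli neonates, against 218, 259.7 and 236 CPM in PBS neonates. The PBS juvenile libraries were the 3 lowest, and the other groups overlapped. It rose 1.22-fold with E. coli in juveniles (log2 0.28 ± 0.08, adjusted p = 0.0156). The call was lost without E. coli juvenile library 2 (adjusted p = 0.0661), without PBS juvenile library 1 (adjusted p = 0.053) and with the neutrophil and monocyte marker sum in the fit, where the change was 0.32 (adjusted p = 0.109). It was 0.41 with the Mki67 level in the fit (adjusted p = 0.132) and 0.37 with the S phase level (adjusted p = 0.0651). The change in neonates was -0.02 ± 0.08 (adjusted p = 0.954), and the difference between the responses, 0.31 ± 0.11, did not pass (adjusted p = 0.112) but did so at 0.38 without PBS juvenile library 2 and PBS neonate library 1 (adjusted p = 0.0403). PBS juveniles over PBS neonates gave -0.28 ± 0.08 (adjusted p = 0.0567), and DESeq2 gave -0.27 (adjusted p = 0.02). Without PBS juvenile library 2 it was -0.29 (adjusted p = 0.0466), and without that library and PBS neonate library 1 it was -0.35 (adjusted p = 0.0342).

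Tet3, a further dioxygenase of the family (chromosome 6, 83362373 to 83459084, minus strand), had 341, 379.9 and 449 CPM in E. coli juveniles, against 523, 539 and 534 CPM in E. coli neonates. It had 497, 349 and 550.0 CPM in PBS juveniles, against 551, 519.7 and 509.9 CPM in PBS neonates. PBS juvenile library 2 was far below the other PBS juvenile libraries and lay among the E. coli juveniles. After E. coli, Tet3 fell to 0.734 times the neonatal level in juveniles (log2 -0.45 ± 0.13, adjusted p = 0.0296). This call was lost without E. coli juvenile library 1 (-0.36, adjusted p = 0.131), without E. coli juvenile library 2 (adjusted p = 0.112) and without any 1 of the 3 E. coli neonate libraries (adjusted p = 0.0658 to 0.0767). It was -0.08 with the Mki67 level in the fit (adjusted p = 0.731) and -0.24 with the immature T cell marker sum (adjusted p = 0.443). E. coli over PBS in juveniles was -0.25 ± 0.13 (adjusted p = 0.177), and without PBS juvenile library 2 it was -0.42 (adjusted p = 0.00387). PBS juveniles over PBS neonates gave -0.18 ± 0.13 (adjusted p = 0.538), and -0.87 with the Mki67 level in the fit (adjusted p = 0.0109) and -0.68 with the S phase level (adjusted p = 0.0105). The difference between the responses was -0.27 ± 0.19 (adjusted p = 0.435), -0.44 without PBS juvenile library 2 (adjusted p = 0.0335) and -0.47 without that library and PBS neonate library 1 (adjusted p = 0.0462).

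Tdg, the glycosylase that removes oxidised methylcytosine, ran from 18.5 to 20.2 CPM in E. coli juveniles, 15.8 to 17.7 in PBS juveniles, 20.0 to 25.8 in E. coli neonates and 19.9 to 22.5 in PBS neonates. Mbd2, the reader that recruits the NuRD complex, ran from 322 to 355 CPM in E. coli juveniles, 290.0 to 413 in PBS juveniles, 291 to 295 in E. coli neonates and 305 to 323 in PBS neonates. Neither passed in any comparison. PBS juvenile library 2 was the high Mbd2 value, and without it Mbd2 was higher in E. coli juveniles than in PBS juveniles by 0.20 on the log2 scale (adjusted p = 0.0434). For E. coli juveniles over E. coli neonates, Mbd2 gave 0.19 (adjusted p = 0.248) with all libraries and 0.19 (adjusted p = 0.031) without PBS juvenile library 2, and the adjusted p was 0.0399 without that library and PBS neonate library 1. With the Mki67 level in the fit, Mbd2 gave -0.57 for E. coli over PBS in juveniles (adjusted p = 0.0493) and 0.57 for PBS juveniles over PBS neonates (adjusted p = 0.0273).

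Compared per kilobase of exon (GENCODE M21), Mbd2 and Dnmt1 transcripts were the most abundant of the 10 and Dnmt3b and Tdg the least. Mbd2 stood at 104 ± 5.34 CPM per kb in E. coli juveniles, and at 96.8 to 104 as the means of the PBS groups and 91.2 in E. coli neonates. Dnmt1 stood at 56.9 ± 10.1 CPM per kb in E. coli juveniles, 41.2 ± 7.82 in PBS juveniles, 50.6 ± 1.99 in E. coli neonates and 53.7 ± 3.14 in PBS neonates (SD, n = 3 each). Its partner Uhrf1 was lower, at 12.7 ± 3.12 CPM per kb in E. coli juveniles, 6.19 ± 1.15 in PBS juveniles, 12.7 ± 1.38 in E. coli neonates and 12.6 ± 2.18 in PBS neonates (SD, n = 3 each). Among the TET genes, Tet3 was the most abundant in every group (group means 23.4 to 31.9 CPM per kb). Tet1 and Tet2 changed places with exposure in juveniles: Tet1 averaged 8.74 and Tet2 14.1 CPM per kb in E. coli juveniles, against 14.9 for Tet1 and 11.6 for Tet2 in PBS juveniles. The exon length of the isoforms used in these cells is not known, so the scale is approximate.

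**Figure D5:**
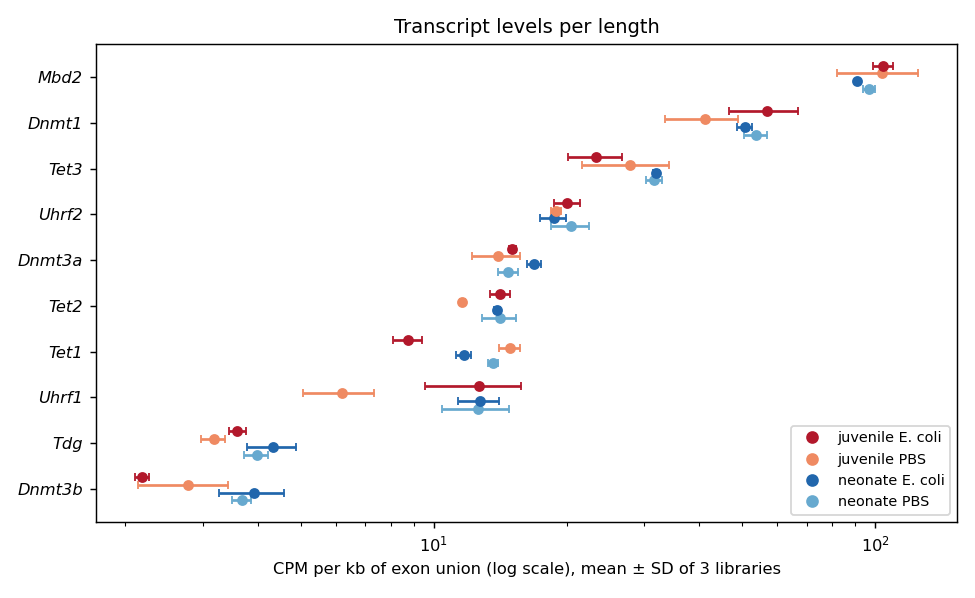
Level of the 10 genes in CPM per kilobase of exon union (horizontal axis, log scale) in the 4 groups; points are means and bars are SD of 3 libraries. The group means of Mbd2 lie between 91.2 and 104, those of Dnmt3b between 2.18 and 3.92, and those of Uhrf1 between 6.19 and 12.7.

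Beyond the 10 genes, Hells, Lig1 and Gadd45g were among the DNA methylation genes that rose with E. coli in juveniles. Of 56 listed genes (maintenance partners, other methyltransferase genes, other methyl-CpG readers, CXXC and H3K36 genes, demethylation and repair genes, and methyl donor and TET cofactor metabolism), 50 were tested. In juveniles 6 rose and 2 fell with E. coli (24.8% of all tested genes called), and in neonates 1 rose and 0 fell (1.19% called). For juveniles over neonates, 0 rose and 3 fell after PBS (4.08% called), and 1 rose and 3 fell after E. coli (17.8% called). The maintenance partners that rose with E. coli in juveniles were Hells, a chromatin remodeller needed for DNA methylation, and Lig1, the ligase that joins replication fragments and that UHRF1 binds. Hells averaged 77.3 CPM in E. coli juveniles and 36.1 CPM in PBS juveniles (log2 1.10 ± 0.15, adjusted p = 0.000112), and its juvenile response exceeded the neonatal one by 1.07 (adjusted p = 0.0081). Lig1 averaged 155 CPM in E. coli juveniles and 76.2 CPM in PBS juveniles (1.02 ± 0.19, adjusted p = 0.00095). Lig1 was also the 1 gene of 44 in this wider list with a promoter window whose window held the E2F-like letters (2.27%). Both fell in PBS juveniles against PBS neonates, Lig1 by 0.86 ± 0.19 (adjusted p = 0.0164) and Hells by 0.70 ± 0.16 (adjusted p = 0.0185). The other 11 maintenance partners did not pass for E. coli over PBS at either age.

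Of 11 tested demethylation and repair genes, Gadd45g was the only gene of the wider list that rose with E. coli in neonates. Gadd45g, a stress-induced gene proposed to promote demethylation, averaged 9.56 CPM in E. coli juveniles and 1.34 CPM in PBS juveniles (log2 2.81 ± 0.42, adjusted p = 0.000212), and 6.76 CPM in E. coli neonates and 1.43 CPM in PBS neonates (2.25 ± 0.43, adjusted p = 0.0138). Its relative Gadd45b rose in juveniles, with 12.2 CPM after E. coli and 4.88 CPM after PBS (1.31 ± 0.31, adjusted p = 0.0063). Lig3, a repair ligase, fell in juveniles with E. coli (-0.26 ± 0.09, adjusted p = 0.0363). Kdm2b, a CXXC-domain demethylase of histone H3, and Cxxc5, which binds unmethylated CpG sites, both rose in juveniles, Kdm2b by 0.64 ± 0.14 (adjusted p = 0.00312) and Cxxc5 by 0.70 ± 0.19 (adjusted p = 0.0148). Among other readers, Zbtb4 fell in juveniles with E. coli (-0.50 ± 0.14, adjusted p = 0.0194). Of 10 genes of methyl donor and TET cofactor metabolism, Mat2b, a regulatory subunit of S-adenosylmethionine synthesis, was lower in PBS juveniles than in PBS neonates (-0.41 ± 0.11, adjusted p = 0.0414). After E. coli, juveniles over neonates, Zbtb38, another reader, rose (197 CPM in E. coli juveniles and 147 CPM in E. coli neonates, log2 0.43, adjusted p = 0.0064), while Trim28, a corepressor (-0.36), Suv39h1, a histone H3 methyltransferase (-0.39), and Apex1, a base excision repair nuclease (-0.43), fell. The difference between the responses was positive for Hells and Lig1 and negative for Mat2a, the catalytic subunit of S-adenosylmethionine synthesis (-0.41, adjusted p = 0.0366). The part of transcripts from other cell types in the values of these wider lists was not tested.

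For each of the 10 genes, up to 3 genes with the most similar pattern over the 12 libraries are given. Likeness is Pearson's r of log2 CPM among 8127 candidate genes; the points share library and depth, and the values describe these libraries only. Nearest to Dnmt1 were Ccna2, the cyclin of S and G2 phases (r = 0.969), Ttk, a spindle checkpoint kinase (0.966), and Ercc6l (0.962). Near to Uhrf1 were the mitotic kinesins Kif15 (0.987) and Kif14 (0.982). Mki67 ranked 48 among the candidates for Dnmt1 (r = 0.926) and 139 for Uhrf1 (r = 0.885). The value with Mki67 was -0.666 for Tet1, 0.685 for Tet2 and -0.380 to 0.379 for the other members. With the group means taken out, r with Mki67 was 0.909 for Dnmt1, 0.869 for Uhrf1 and -0.083 for Tet1. Among the other members this r was 0.827 for Mbd2, 0.013 for Uhrf2, -0.351 for Dnmt3b and -0.357 for Tet2. It was -0.605 for Dnmt3a, -0.667 for Tdg and -0.837 for Tet3. Nearest to Tet1 were Il16, a cytokine precursor gene (0.977), Card6 (0.977) and St8sia1 (0.969), and to Tet2 the NF-kappaB subunit gene Rel (0.906), Smchd1 (0.905) and Slc39a8 (0.868). Nearest to Tet3 were Zbtb34 (0.969), Eif4ebp2 (0.958) and Dip2b (0.958), to Dnmt3a Slc7a5 (0.937), Hist1h1c (0.932) and Slc35e1 (0.910), and to Dnmt3b Mcm3ap (0.932), Bcl2 (0.923) and Sox4 (0.918). Nearest to Mbd2 were Sec61b (0.957), Arpc5 (0.956) and Mdh1 (0.950), to Tdg Rg9mtd1 (0.935), Tle1 (0.898) and Cnot7 (0.898), and to Uhrf2 Pus10 (0.845), Exoc4 (0.827) and Cdk5rap2 (0.822).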

How the data were processed

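RNA of 12 pools of lung CD4+ T cells was measured, 3 in each of 4 groups, after magnetic bead enrichment and flow sorting. Per the submitters' processing notes, the authors used CASAVA 1.8.4 and the STAR aligner with the GRCm38 (mm10) build. The deposited values are raw whole-number counts per gene symbol; the table's name credits SeqMonk, whose version, annotation and strand setting were not stated. The cDNA kit that the labels name (Nugen Ovation V2) is of a kind that does not keep strand, so reads of overlapping or antisense genes cannot be told apart. Library pairs within a group all differed beyond counting error (chi-square per degree of freedom 3.88 to 19.6). PBS juvenile library 2 gave 14.4 and 19.6 against PBS juvenile libraries 1 and 3. E. coli juvenile library 3 gave 13.2 and 7.03 against E. coli juvenile libraries 1 and 2. The pairs of PBS neonate libraries gave 4.04 to 4.88.

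Genes were filtered with filterByExpr (minimum count 10, minimum total 15), scaled by TMM and tested with edgeR 4.0.16 (R 4.3.3) quasi-likelihood F tests on all 12 libraries with a threshold of 0.05 on the Benjamini-Hochberg adjusted p. The common BCV (biological coefficient of variation) was 0.123. Contrasts were E. coli over PBS at each age, their difference, and juveniles over neonates at each exposure. The fit was tested on simulated data. Ratios to Mki67 used exact permutation tests of log2 ratios. Mki67 and list levels served as covariates in alternative fits, with other scalings, DESeq2 1.42.0, limma voom, no filter, a replicate block and omitted libraries. The members and lists were chosen with earlier results of these data known. All 10 members are named, up to 4 called genes of smallest p per list and contrast, and the 3 most alike genes, of which 1 is not reported here; where more list genes moved, counts stand for them. CPM per kb used GENCODE M21 exons, and promoters are RefSeq windows of 300 bases. Figures used Python 3.11.15 and matplotlib 3.10.9. A comparison of protein sequences was not done, and DNA methylation was not analysed here. The replicates are pools of different mice per the labels.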

Additional observations from a re-analysis of the deposited data

Results flagged for a closer look

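The response of Uhrf1 to E. coli differed between the ages by the test of the difference itself: the juvenile change exceeded the neonatal change by 1.03 ± 0.25 on the log2 scale (edgeR quasi-likelihood F test, adjusted p = 0.0239), with 1.04 in juveniles and 0.01 in neonates. This difference was -0.45 with the Mki67 level in the fit (adjusted p = 0.532), 0.18 with the S phase level (adjusted p = 0.751) and 0.57 with the immature T cell markers (adjusted p = 0.407), and it missed the threshold without any 1 of 6 libraries (0.79 to 0.98). PBS juveniles were the low group, at a mean Uhrf1 level of 26.4 CPM. The means were 54.0 CPM in E. coli juveniles, 54.1 in E. coli neonates and 53.7 in PBS neonates. The response of Tet1 differed by the same test, by -0.54 ± 0.11 (adjusted p = 0.0101), with -0.77 in juveniles and -0.22 in neonates. It did not pass with the Mki67 level (-0.51, adjusted p = 0.247), the S phase level (-0.47, adjusted p = 0.181) or the immature T cell markers (-0.58, adjusted p = 0.0783) in the fit. Over all tested genes, 113, 7 and 128 differences between responses passed in those fits. Groups of 3 libraries were not tested for single libraries far from the rest.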

How the results depend on the processing

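Over the alternative fits, 1289 of 1359 values of single genes kept their call, 41 lost it, 24 gained it, and 68 values past the threshold in neither fit changed sign. Of values called in at least 1 of both fits, 5 turned round, all with a proliferation level in the fit: E. coli over PBS in juveniles with the Mki67 level for Dnmt1 (-0.36), Uhrf1 (-0.11) and Mbd2 (-0.57, adjusted p = 0.0493), the same with the S phase level for Dnmt1 (-0.092), and the Uhrf1 difference between responses with the Mki67 level (-0.45); the cause was not tested. Of the 10 genes, the 4 called for E. coli over PBS in juveniles became 2 with only the groups compared, where fewer libraries are fitted (Uhrf1 and Tet1). The count was 2 with the Mki67 level (Tet1 and a newly called Mbd2), 1 with the S phase level (Tet1) and 2 to 7 without single libraries. Of all tested genes, 861 were called there with the Mki67 level and 976 with the S phase level. The 1 called for juveniles over neonates after PBS (Uhrf1) became 2 with DESeq2, 2 with the Mki67 level (Tet3 and Mbd2, with Uhrf1 lost), 3 without both PBS neonate library 1 and PBS juvenile library 2, and 1 to 3 without single libraries. With the S phase level the count stayed at 1, with Tet3 in place of Uhrf1. The 3 called after E. coli became 1 with the immature T cell markers and 2 to 4 without single libraries. The 2 called for the difference between responses became 0 with the Mki67 level, the S phase level or the immature T cell markers, 5 without both libraries and 1 to 4 without single libraries. Of all 11062 tested genes, 113 were called for that difference with the Mki67 level, 7 with the S phase level and 128 with the immature T cell markers. In neonates the count of E. coli over PBS was 0 in every alternative. Over all genes, calls ranged from 53 to 320 in neonates (132 in the fit reported), 861 to 3204 in juveniles (2747), 177 to 841 for juveniles over neonates after PBS (451), 822 to 2637 after E. coli (1964) and 7 to 1553 for the difference (774).

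No pairing of the libraries by replicate number was visible: deviations from group means correlated at -0.168 to 0.222 between libraries of the same number and -0.244 to 0.222 between others. A batch shared by libraries of the same number was not tested. The replicate block left the counts of called members at 0 in neonates, 4 in juveniles, 1 after PBS, 3 after E. coli and 2 for the difference. The fit on only the groups compared gives no difference between responses. The 8 pairwise ratio tests cannot reach 0.05, so their not passing says nothing of stability. With the S phase reference the sign of the ratio difference changed for Dnmt1 in neonates (-0.01) and after E. coli (0.02) and for Uhrf1 in juveniles (0.43) and after PBS (-0.50), and with the G2/M reference for Dnmt1 in neonates (-0.01) and for Uhrf1 within age (-0.04). With 3 pools a group, depth and pool number limit small changes, and the 95% intervals give the sizes that each comparison leaves possible.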
